A study of Mus musculus with 6 samples.

Results

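The cytosolic heat shock response genes are 10 genes of the protein folding machinery of the cytosol, Hspa1a, Hspa1b, Hspa8, Hsph1, Dnajb1, Dnaja1, Hsp90aa1, Hsp90ab1, Hspb1 and Bag3. They were taken by their symbols from a table of 16880 mouse genes, where all 10 are listed, and 9 had enough reads to be tested. RNA was sequenced from ATDC5, a mouse chondrogenic cell line, in 3 libraries from cells given IL-1β at 10 ng/mL (IL-1β) and 3 libraries from cells given IL-1β at 10 ng/mL together with NP-G2-044, a Fascin1 inhibitor, at 10 μM (IL-1β plus NP-G2-044). The exposure lasted 24 h per the study's methods. Every culture therefore carried IL-1β, and DMSO-only cultures were not analysed here. The titles of the inhibitor-treated libraries give NP-G2-044 and their treatment label NP-G2-047. The study calls the sequenced cells chondrocytes, and its culture methods describe primary mouse articular chondrocytes, where the labels name the ATDC5 cell line. This conflict is not resolved here. The methods speak of biological replicates without saying how cultures were separated, so the p-values measure the spread between these libraries.

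When unfolded proteins build up, heat shock factor 1 (HSF1) binds repeats of short elements in front of its target genes and raises the transcription of chaperones. HSP70 proteins bind exposed hydrophobic stretches with the help of J-domain proteins (HSP40), which deliver clients and speed up ATP hydrolysis, and of HSP110 and BAG proteins, which exchange the nucleotide. HSP90 finishes the folding of kinases and steroid receptors, and small heat shock proteins hold aggregating proteins without using ATP. Both the HSP70 and the HSP90 families have heat-inducible genes and genes that are transcribed at high levels in unstressed cells.

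Library totals ran from 16615824 to 17735860 estimated reads, and libraries of 1 group lay far closer to each other than to those of the other group. Levels are the authors' TPM, which are per length. Differences are log2 fold changes, the inhibitor-treated group divided by the IL-1β group, with their standard error (SE) from edgeR, positive where the level was higher with the inhibitor. Genes were called where the adjusted p was below 0.05. A stricter rule, with both cutoffs of the study, also asked for a change of more than 1 on the log2 scale. Of 16 chondrocyte markers, 12 are listed in the table and only 3, Sox9, Sox5 and Col11a2, reached 1 TPM, whereas 8 of 10 fibroblast markers did. The summed chondrocyte markers were 22.5 to 23.4 TPM in the IL-1β libraries and 17.7 to 18.4 TPM in the others, with Sox9, the chondrocyte transcription factor, higher (6.44 and 11.4 TPM), Sox5 lower (10.3 and 2.27 TPM) and Col2a1, the collagen that defines cartilage, below 1 TPM in both group means. The summed fibroblast markers went from 1505 to 1547 TPM in the IL-1β libraries down to 767.5 to 799.3 TPM in the others, mostly through Col1a2 (1098 and 330.8 TPM), whereas Fn1 (360.5 and 416.6 TPM) and Pdgfra (2.36 and 8.69 TPM) of the same list were higher. The summed macrophage markers went from 11.3 to 14.3 up to 124.1 to 134.9 TPM, almost all of it Cd68, a lysosomal membrane protein, with the leukocyte marker Ptprc listed at 0 in every library and Csf1r and Lyz2 below 1 TPM. The part of these shifts in the results that follow was not tested.

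The heat shock genes did not rise together with NP-G2-044. Only Hsp90aa1, the heat-inducible HSP90, rose, by 22.8%, and 6 genes fell, with changes between −9.99% for Dnajb1 and −33.3% for Bag3. Hspa1b and Hsph1 were not called. Among the 11983 genes tested, 80% were called, 40.2% as higher and 39.8% as lower, against 11.1% and 66.7% of the 9 tested members. The TPM of the groups did not overlap for 1 member that was higher and 6 that were lower, where this held for 79.4% of all tested genes, 38% higher and 41.4% lower. With 80% of genes called, a call alone sets no member apart. None of the 9 tested members had a log2 fold change above 1 in size, where 16.6% of all tested genes passed both cutoffs, 6.48% as higher and 10.1% as lower. The 7 called members were also those of the 9 with an unadjusted p below 0.05 in edgeR. Of all tested genes, 80% were below 0.05 even after adjustment. DESeq2 made the same number of calls, 1 higher and 6 lower, with none past both cutoffs. The median log2 fold change was −0.17 over the tested members and 0.00 over all tested genes.

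**Figure D1:**
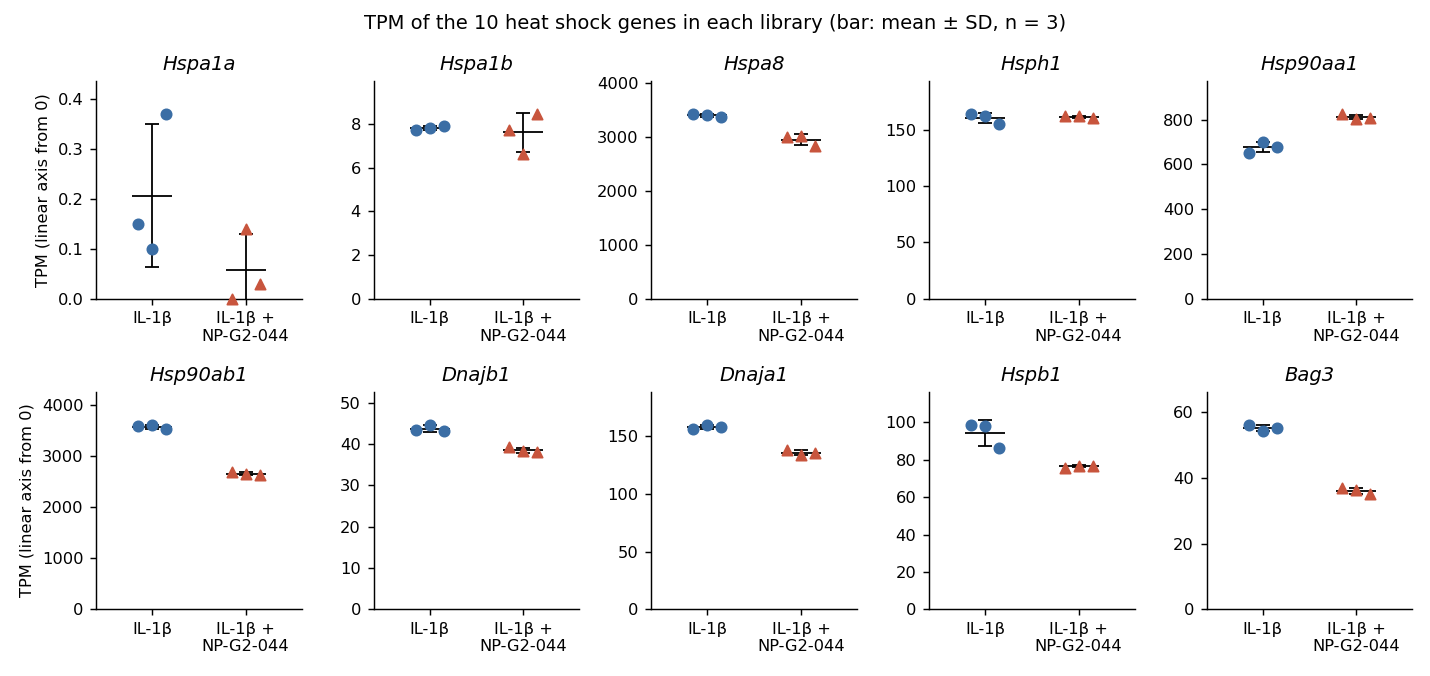
TPM of each of the 10 heat shock genes on a linear axis that starts at 0, with blue circles for the 3 IL-1β libraries, orange triangles for the 3 IL-1β plus NP-G2-044 libraries, and a bar and whiskers for the mean ± SD. The groups are apart for 7 genes, only Hsp90aa1 among them being higher with the inhibitor, and they overlap for Hspa1a, Hspa1b and Hsph1.

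Hspa1a and Hspa1b encode the heat-inducible HSP70 and are among the genes that rise most in a heat shock response. Both lie on chromosome 17 (GRCm38), Hspa1b at 34956436 to 34959238 and Hspa1a at 34969190 to 34972156, on the minus strand, each with 1 exon in GENCODE vM21. The 250 bases before their starts are shown because these copies are nearly alike, in front of the gene as well as within it, and because they hold matches to the element that HSF1 is known to bind. In both sequences, from RefSeq (GRCm38.p6), the capitals mark GAANNTTC together with longer matches, with at most 1 mismatch, to the 3-unit elements GAANNTTCNNGAA and TTCNNGAANNTTC.
Hspa1a, minus strand, chr17:34972157-34972406: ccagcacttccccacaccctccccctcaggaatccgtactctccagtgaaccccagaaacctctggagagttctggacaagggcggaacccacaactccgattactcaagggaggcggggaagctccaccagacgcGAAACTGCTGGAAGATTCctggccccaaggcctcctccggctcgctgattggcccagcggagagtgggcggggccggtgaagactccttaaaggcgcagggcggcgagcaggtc
Hspa1b, minus strand, chr17:34959239-34959488: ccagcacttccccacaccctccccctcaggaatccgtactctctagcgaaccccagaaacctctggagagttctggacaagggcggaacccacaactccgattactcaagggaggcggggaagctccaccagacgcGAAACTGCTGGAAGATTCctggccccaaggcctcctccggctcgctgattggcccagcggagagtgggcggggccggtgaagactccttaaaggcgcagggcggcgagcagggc
Counted from 1 at the 5′ end, with the base of Hspa1a first, they differ by C44T, T47C and T249G and are alike at 247 of 250 positions.

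The transcripts are alike over long stretches. Of all windows of 50 bases in Hspa1a, 58.8% occur unchanged in Hspa1b, and of all windows of 100 bases, 47.1%. A read from such a window cannot be assigned to a gene. The deposited counts carry this directly, since the estimates of Hspa1a, Hspa1b and their neighbour Hspa1l are mostly fractions, yet add up to a whole number, within 0.01, in each of the 6 libraries, for example 2.50, 207.1 and 140.4 to 350.0. Windows of 50 bases shared between Hspa1l and Hspa1b were 7.72% of those of Hspa1l. Exons of Hspa1a also overlap those of Gm20481 on the opposite strand over 564 bases. Use of strand in the counting is not given. The separate values of Hspa1a and Hspa1b are therefore uncertain.

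Hspa1b (Entrez gene 15511) was at 7.74, 7.83 and 7.91 TPM with IL-1β and at 7.76, 6.65 and 8.46 TPM with the inhibitor. The inhibitor-treated libraries lay on both sides of the IL-1β libraries. The log2 fold change, −0.01 (SE 0.089, adjusted p = 0.945), had a 95% interval from −12.1% to 12.6%. Hspa1a (Entrez gene 193740) had 3.94, 2.50 and 9.83 estimated reads with IL-1β and 0, 4.11 and 1.01 with the inhibitor, between 0% and 4.40% of the reads of the pair. It was below the filter on low counts, and the groups overlapped. Without the filter its fitted log2 fold change was −1.67 (SE 0.745, adjusted p = 0.0404), past both cutoffs, a value that rests on these few reads and on how they were divided. Summed to 1 feature, the pair had 215, 210 and 224 reads against 221, 198 and 248. The log2 fold change of the sum was −0.03 (SE 0.0878, adjusted p = 0.743), with a 95% interval from −0.21 to 0.14.

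Hspa8 (Entrez gene 15481), the constitutive HSP70 known as HSC70, is on chromosome 9, plus strand, at 40800984 to 40810087. It was at 3418, 3409.6 and 3360.3 TPM with IL-1β and at 3004, 3007 and 2835 TPM with the inhibitor. All inhibitor-treated libraries lay below all IL-1β libraries. The gene fell by 11.3% (log2 fold change −0.17, SE 0.0263, adjusted p = 5.24e-08). It shares no window of 50 bases with Hspa1b or with Hspa2, and its estimated counts are whole numbers. The inducible pair summed to 8.03 ± 0.215 TPM with IL-1β and 7.68 ± 0.853 TPM with the inhibitor (SD, n = 3 each), a ratio to Hspa8 of 0.00237 ± 0.0000852 and 0.00261 ± 0.000369. An exact two-sided permutation test of this ratio gave p = 0.4. The smallest p that 3 libraries against 3 allow is 0.1, so this test could not reach 0.05.

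Hsph1 (Entrez gene 15505) encodes the inducible HSP110, a nucleotide exchange factor for HSP70 that also dissolves aggregates. The gene lies on chromosome 5, minus strand, at 149614287 to 149636376. The TPM was 163.6, 162.5 and 155.0 with IL-1β and 161.9, 162.1 and 160.3 with the inhibitor, with overlapping groups. The log2 fold change was 0.05 (SE 0.0288, adjusted p = 0.144), and the 95% interval from −0.87% to 7.41% spans 0. Without replicate 1 of the IL-1β libraries the gene was called, at 0.07 (adjusted p = 0.0335).

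The J-domain genes of the group moved in the same direction and by similar amounts. Dnajb1 (Entrez gene 81489), the heat-inducible HSP40, is on chromosome 8, plus strand, at 83608193 to 83612653. It was at 43.4, 44.6 and 43.3 TPM with IL-1β and at 39.2, 38.2 and 38.1 TPM with the inhibitor, without overlap. It fell by 9.99% (log2 fold change −0.15, SE 0.0392, adjusted p = 0.000464). Dnaja1 (Entrez gene 15502), a farnesylated HSP40, is on chromosome 4, plus strand, at 40722150 to 40737149. Its TPM went from 156.6, 159.8 and 158.2 to 138.2, 134.0 and 135.6, again without overlap. It fell by 12.1% (log2 fold change −0.19, SE 0.028, adjusted p = 4.18e-08). Exons of Dnaja1 overlap those of Smu1 on the opposite strand over 608 bases, and Smu1 itself had a log2 fold change of −0.03 (adjusted p = 0.463). The ratio of Dnajb1 to Dnaja1 was 0.277 ± 0.00295 with IL-1β and 0.283 ± 0.00209 with the inhibitor (SD, n = 3 each), and all 3 ratios with the inhibitor were above all 3 without it (exact permutation test, p = 0.1, the smallest possible).

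The HSP90 genes parted. Hsp90aa1 (Entrez gene 15519), the heat-inducible HSP90α, lies on chromosome 12, minus strand, at 110690605 to 110702728. It was at 652.9, 698.2 and 678.2 TPM with IL-1β and at 824.5, 803.4 and 809.3 TPM with the inhibitor, and every inhibitor-treated library was above every IL-1β library. Its rise of 22.8% (95% interval 18.4% to 27.4%) is 0.30 on the log2 scale (SE 0.0262, adjusted p = 6.58e-15). Hsp90ab1 (Entrez gene 15516), the constitutive HSP90β, lies on chromosome 17, minus strand, at 45567775 to 45573271. Its TPM was 3579, 3601 and 3516 with IL-1β and 2688, 2637 and 2629 with the inhibitor, without overlap. It fell by 0.40 on the log2 scale (SE 0.0254, adjusted p = 3.52e-20), with a 95% interval from −26.7% to −21.3%. The genes share no window of 50 bases.

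**Figure D2:**
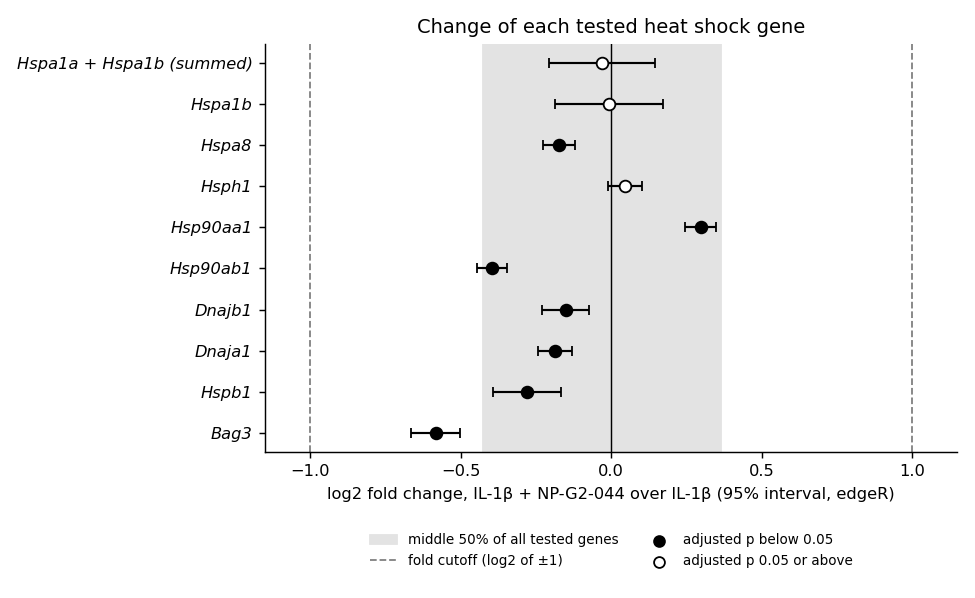
Log2 fold change of each tested heat shock gene, and of Hspa1a and Hspa1b summed, with its 95% interval from edgeR. Filled points have an adjusted p below 0.05, the grey band holds the middle 50% of all tested genes (−0.43 to 0.36), and the dashed lines are the fold cutoff, which no member reaches. Bag3 alone lies outside the band.

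Within the HSP90 genes the balance moved toward the inducible form. Hsp90aa1 made up 15.4%, 16.2% and 16.2% of their summed TPM with IL-1β alone and 23.5%, 23.4% and 23.5% with the inhibitor. The ratio of Hsp90aa1 to Hsp90ab1 was 0.190 ± 0.00635 and 0.306 ± 0.00159 (SD, n = 3 each), a difference of 0.69 on the log2 scale. This difference is far larger than the spread between replicates, and its exact two-sided permutation test gave 0.1, the smallest possible p. As Hsp90ab1 is the more abundant gene, the sum of both went down, from 4242 ± 53.2 to 3464 ± 42.2 TPM (SD, n = 3 each).

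**Figure D3:**
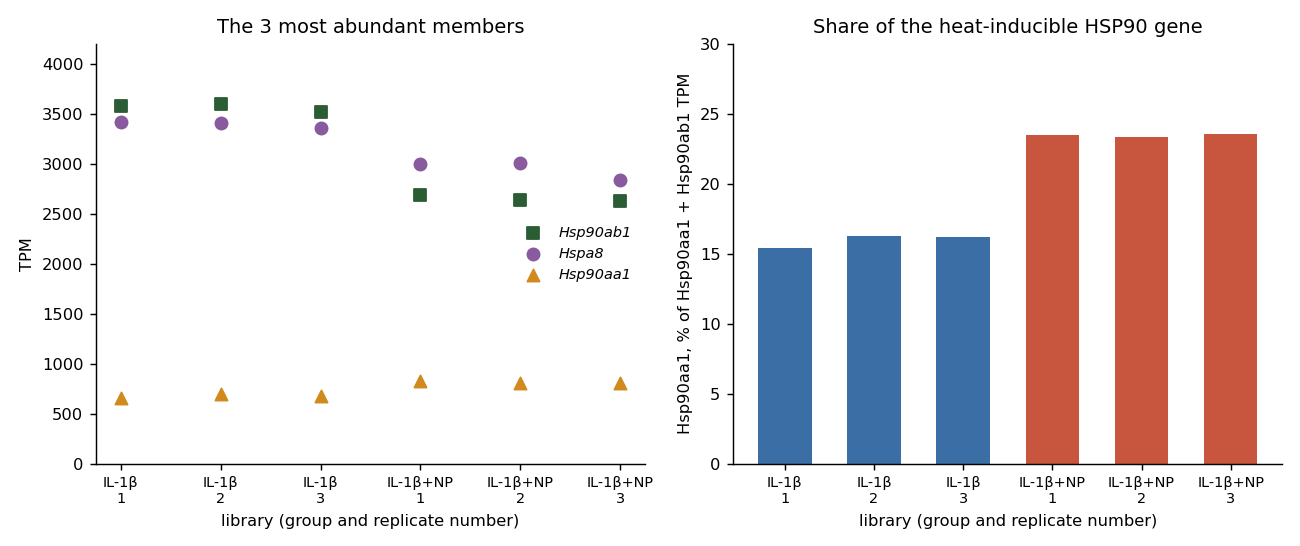
Left, TPM of Hsp90ab1 (squares), Hspa8 (circles) and Hsp90aa1 (triangles) in each of the 6 libraries; right, Hsp90aa1 as a percentage of the summed TPM of both HSP90 genes, in blue for IL-1β and in orange for IL-1β plus NP-G2-044. Hsp90ab1 is above Hspa8 in the 3 IL-1β libraries and below it in the 3 others, and the share of Hsp90aa1 goes from between 15.4% and 16.2% to between 23.4% and 23.5%.

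Hspb1 (Entrez gene 15507) encodes the small heat shock protein HSP25, known for binding aggregating proteins and for its ties to actin filaments. It lies on chromosome 5, plus strand, at 135887919 to 135889563. It was at 98.6, 98.1 and 86.1 TPM with IL-1β and at 75.8, 76.8 and 76.6 TPM with the inhibitor. Replicate 3 of the IL-1β libraries was the lowest of its group and still above all inhibitor-treated libraries. The gene fell by 17.7%, or by 0.28 on the log2 scale (SE 0.0566, adjusted p = 1.43e-05), with log2 fold changes between −0.35 and −0.24 with each library left out.

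Bag3 (Entrez gene 29810) links HSP70 to small heat shock proteins and hands damaged filament proteins to autophagy. It lies on chromosome 7, plus strand, at 128523616 to 128546981. Its TPM was 56.1, 54.3 and 55.3 with IL-1β and 36.8, 36.4 and 35.0 with the inhibitor, without overlap. It fell by 33.3% (95% interval −37.0% to −29.4%), or −0.58 on the log2 scale (SE 0.041, adjusted p = 1.28e-18). This was the largest change among the tested members, and 65.5% of all tested genes had a change of that size or smaller.

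In bulk RNA, less transcript in every cell and fewer cells with the transcript cannot be told apart. Taken as a pool, the 10 genes held 0.816% ± 0.00892 of all TPM with IL-1β and 0.687% ± 0.0127 with the inhibitor (SD, n = 3 each). Their summed level was 8061 to 8236 TPM in the IL-1β libraries and 6727 to 6976 TPM in the others. Hsp90aa1, Hsp90ab1 and Hspa8 made up 93.3% to 93.7% of that sum in every library, so the pool follows these 3 genes.

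The order of the levels changed at 2 places. With IL-1β it was Hsp90ab1, Hspa8, Hsp90aa1, Hsph1, Dnaja1, Hspb1, Bag3, Dnajb1, Hspa1b and Hspa1a. Hsph1 and Dnaja1, at 160.4 ± 4.70 and 158.2 ± 1.62 TPM (SD, n = 3 each), did not differ there beyond their spread. The level of Hsp90ab1 minus that of Hspa8 was 156.0 to 191.7 TPM in the IL-1β libraries and −370.0 to −205.9 TPM in the inhibitor-treated ones, so Hspa8 came first in each of the latter. Dnajb1 likewise stood above Bag3 with the inhibitor, at 38.5 ± 0.608 against 36.1 ± 0.964 TPM (SD, n = 3 each), and below it without.

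Sequence in front of the genes was compared for the 7 members with a promoter entry in RefSeq (GRCm38.p6). No entry was available for Hspa8, Hsp90ab1 and Hsp90aa1, so the only member that rose, Hsp90aa1, is not among the 7. Over the 250 bases before each listed start, on both strands, 5 of the 7 held an exact GAANNTTC or TTCNNGAA, and the same 5 held GAANNTTCNNGAA or TTCNNGAANNTTC with at most 1 mismatch in the 9 fixed letters. Some listed starts lie inside the GENCODE gene, so that all windows of Dnaja1 and the second of Dnajb1 fall within the gene span given above, and those of Hsph1 reach into it. Matches to the short and the long form overlap each other in these windows. Of 27025 genes with an entry, 14.5% held the short and 6.86% the long form, and the exact long form occurred in 0.514% of genes and in none of the 7. Besides Hspa1a and Hspa1b, the carriers were Hsph1, Dnaja1 and Hspb1, whose elements are shown in capitals with up to 30 bases on either side because their genes had different outcomes.
Hsph1, minus strand, chr5:149636337-149636399: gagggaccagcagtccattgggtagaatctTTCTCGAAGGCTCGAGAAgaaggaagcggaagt
Dnaja1, plus strand, chr4:40722309-40722381: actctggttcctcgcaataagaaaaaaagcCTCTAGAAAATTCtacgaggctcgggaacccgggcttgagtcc
Hspb1, plus strand, chr5:135887772-135887859: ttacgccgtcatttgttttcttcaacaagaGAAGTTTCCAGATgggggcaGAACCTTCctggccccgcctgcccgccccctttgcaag
Among these carriers, Dnaja1 and Hspb1 fell while Hsph1 and Hspa1b were not called. Dnajb1 and Bag3, with no match in this window, both fell. A match describes the letters only.

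Of the factors that act on such elements, Hsf1 rose slightly and Hsf2 was not called. Hsf1 (Entrez gene 15499), the master regulator of the response, went from 74.6 ± 1.26 to 83.1 ± 1.01 TPM (SD, n = 3 each), or 0.17 on the log2 scale (SE 0.0358, adjusted p = 2.46e-05). Hsf2 was at 35.3 ± 0.673 and 36.7 ± 0.230 TPM (SD, n = 3 each), with a log2 fold change of 0.04 (adjusted p = 0.433). Of 8 tested genes of a list of HSF factors and their regulators, 3 rose and 4 fell, where 40.2% of all tested genes rose and 39.8% fell. Beside Hsf1 the risen genes of the list were Hsf4, at 0.47 and 0.71 TPM and with overlapping groups, and Hsbp1. Hsbp1, which binds trimers of HSF1, rose by 0.30 on the log2 scale. Ier5, a co-activator of HSF1, fell from 28.0 to 17.7 TPM, or −0.63 on the log2 scale (adjusted p = 7.20e-17 from edgeR). Its relative Ier5l fell to 0.436 times its IL-1β level, at 8.53 ± 1.63 TPM with the inhibitor (SD, n = 3), and was past both cutoffs. Hdac6, a cytosolic deacetylase that acts on HSP90, fell from 84.8 ± 1.85 to 45.9 ± 1.02 TPM (SD, n = 3 each), or −0.85 on the log2 scale. The activity of HSF1 is set mostly on the protein, which these data do not measure.

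The rest of the folding network was read from lists of 91 other genes in all, mostly cytosolic, of which 84 were tested, where 40 rose (47.6%) and 25 fell (29.8%), against 40.2% and 39.8% of all tested genes. Their median log2 fold change was 0.06. Through the list of HSF1 targets they include the mitochondrial chaperone genes Hspd1 and Hspe1, both risen and counted again among the mitochondrial genes, as well as Mrpl18 and Serpinh1, which also act outside the cytosol. Of 10 other HSP70, HSP110 and small heat shock genes, 4 rose and 3 fell. The small heat shock genes Hspb6 (0.70) and Hspb8 (0.48), a direct partner of BAG3, had the largest rises on the log2 scale, and so went the opposite way from Hspb1 and Bag3. Hspa14 (−0.19), Hspa2 (−0.32) and Hspa12b (−1.36, below 1 TPM in both group means) fell. Of 14 other J-domain genes, 7 rose and 5 fell. Dnaja4, at 5.26 ± 0.164 and 13.8 ± 0.170 TPM (SD, n = 3 each), and Dnajc21, which serves ribosome assembly, with a log2 fold change of 1.14, passed both cutoffs as risen, whereas Dnajc9, a histone chaperone, fell by 0.82 and Dnajb4 by 0.72 on the log2 scale.

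Of 12 genes of the BAG family and other partners of HSP70, 5 rose and 3 fell, where 40.2% of all tested genes rose and 39.8% fell. Bag5 (0.39) and Ubqln1 (0.31) had the largest rises on the log2 scale, and Bag4 (−0.64) and Ubqln2 (−0.43) the largest falls. Of 18 HSP90 co-chaperone genes, 9 rose and 4 fell. Ahsa1, which encodes the activator of the HSP90 ATPase, fell from 265.3 ± 7.40 to 167.8 ± 6.31 TPM, and Cdc37, which brings kinases to HSP90, from 233.9 ± 2.77 to 193.3 ± 8.52 TPM (SD, n = 3 each). Chordc1 rose from 49.3 ± 1.90 to 73.6 ± 2.67 TPM, and Ppid, the HSP90-binding cyclophilin 40, from 123.1 ± 5.55 to 174.6 ± 2.64 TPM (SD, n = 3 each). Of 14 genes of the chaperonin TRiC and of prefoldin, which fold and deliver actin and tubulin, 6 rose and 4 fell, all within 0.47 of 0 on the log2 scale. Pfdn6 (0.47) and Pfdn1 (0.39) rose the most, and Vbp1 (−0.28) and Cct3 (−0.22) fell the most.

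**Figure D4:**
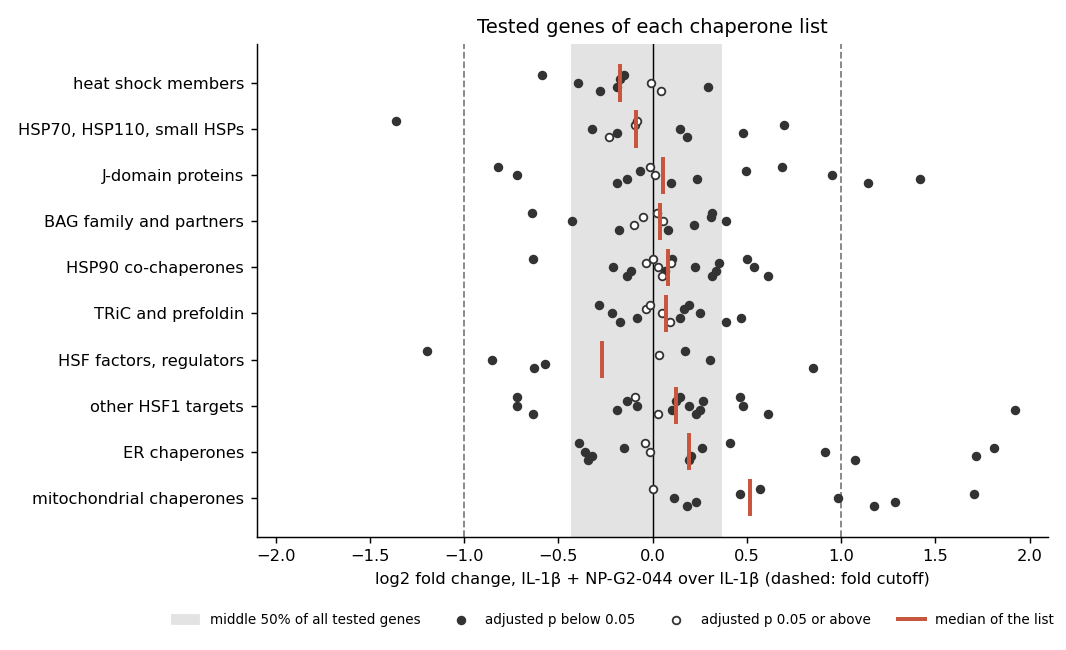
Log2 fold change of every tested gene of the heat shock members and of 9 chaperone lists, with filled points for an adjusted p below 0.05, an orange line for the median of each list and a grey band for the middle 50% of all tested genes. The medians of the members and of the lists other than the endoplasmic reticulum and mitochondrial ones lie between −0.27 and 0.13, and that of the mitochondrial chaperones at 0.52.

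A list of 19 other genes known to be heat-inducible through HSF1 shares genes with the lists above. It had 11 genes higher (57.9%) and 6 lower (31.6%), against 40.2% and 39.8% of all tested genes. Its median log2 fold change was 0.13. Zfand2a, an arsenite-inducible protein that binds the proteasome, had the largest change of that list. It rose from 44.7 ± 0.571 to 165.3 ± 2.58 TPM (SD, n = 3 each), or 1.92 on the log2 scale (SE 0.0323, adjusted p = 2.76e-46), and was the only gene of that list past both cutoffs. Mrpl18, a mitochondrial ribosomal protein with a cytosolic form after heat shock, fell by 0.72 on the log2 scale.

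For comparison, chaperones of other compartments were read in the same fit. Of 15 endoplasmic reticulum genes, 8 rose (53.3%), 3 of them past both cutoffs, and 5 fell (33.3%). Among all tested genes, 40.2% rose, 39.8% fell, and 6.48% were higher past both cutoffs. The median log2 fold change of the 15 endoplasmic reticulum genes was 0.20. Hspa5, the HSP70 of that compartment, rose from 256.4 ± 4.92 to 879.4 ± 14.6 TPM (SD, n = 3 each) and Herpud1, a gene of protein degradation at that membrane, by 1.72 on the log2 scale, whereas Pdia4 and Pdia3 fell by 0.39 and 0.36. Of 10 mitochondrial genes, 9 rose (90%), 3 of them past both cutoffs, and none fell, with a median of 0.52. Hspa9, the mitochondrial HSP70, rose from 245.6 ± 3.33 to 585.5 ± 7.19 TPM and the protease gene Lonp1 from 94.6 ± 2.98 to 301.9 ± 3.35 TPM (SD, n = 3 each). Against these, the tested HSP70 genes among the members had log2 fold changes of −0.17 for Hspa8 and −0.01 for Hspa1b (95% interval −0.19 to 0.17). Hspa5, Herpud1, Hspa9 and Lonp1 were named for the largest rises of their lists, the members whatever their change. The HSP90 genes of those compartments had log2 fold changes of −0.04 for Hsp90b1 (not called) and 0.11 for Trap1 (called). Other cytosolic HSP70 genes are given above. The difference between compartments was not tested.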

How the data were processed

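The 6 RNA libraries from ATDC5 cells were prepared with the TruSeq kit per the labels and sequenced and quantified by BGI. The submitters' processing notes name cutadapt, HISAT2 2.0, StringTie and mm10. Neither counting tool nor annotation is given in these sources. The authors deposited expected counts, estimated per gene and not normalized (10.2% to 11.1% of values per library not whole), TPM per library and FPKM. FPKM and the deposited group means were not used.

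Counts were rounded, filtered with filterByExpr (minimum count 10), normalized with TMM (factors 0.997 to 1.002) and compared in edgeR 4.0.16 (R 4.3.3) with the robust quasi-likelihood test, 3 against 3, without covariates, adjusting p by Benjamini-Hochberg over 11983 genes. Standard errors are the log2 fold change over the square root of F. Within-group pairs differed by more than sampling noise (chi-square per degree of freedom 1.54 to 2.39), so no library was taken for a copy of another. This does not show that cultures were separate. Steps were tested on simulated data. Alternatives used DESeq2 1.42.0, limma 3.58.1 and other filters.

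Members and lists were chosen with earlier results of these data known. Named genes are the 10 members, Hsf1, Hsf2 and, per list, up to 2 rises and 2 falls, the largest with adjusted p below 0.05, no overlap and a mean of at least 5 TPM. Some further list genes are mentioned beside these. Coordinates are from GENCODE vM21.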

Additional observations from a re-analysis of the deposited data

How the results depend on the processing

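Over 16 alternatives and 42 named genes that were tested, 669 of 671 recomputed values kept direction and call. Hsph1 was called without replicate 1 of the IL-1β libraries, so the members called higher ranged from 1 to 2 with each library left out. Hspa1b turned to 0.085 on the log2 scale without replicate 2 of the inhibitor-treated libraries (−0.093 to 0.085 with each library left out, never called). Without the filter on low counts, 1 member, Hspa1a, passed both cutoffs as lower. Past both cutoffs, all tested genes numbered 776 higher and 1211 lower, 516 and 805 with limma on log2(TPM + 1), and 484 and 680 with at least 10 CPM in at least 3 libraries. In both of these settings 1 gene of the other cytosolic chaperone and HSF lists was lower past both cutoffs, against 2. With each library left out, the log2 difference between groups was 0.66 to 0.71 for the ratio of Hsp90aa1 to Hsp90ab1, 0.027 to 0.042 for Dnajb1 to Dnaja1 and 0.030 to 0.23 for the inducible pair to Hspa8, the last from 0.13 with all libraries. It was lowest without replicate 3 and highest without replicate 2 of the inhibitor-treated libraries. The replicate numbers are shared by the groups. Same-numbered libraries had deviations with r = −0.093, −0.024 and 0.026, where differently numbered ones reached −0.107 and 0.129. Not every library correlated best with its own number. As replicates deviated little beyond sampling noise, these correlations cannot decide whether the samples were paired. With the replicate block, 775 genes were higher and 1209 lower past both cutoffs, and the members stayed at 1 higher and 6 lower. DESeq2 size factors or library size alone changed no member's call. Low depth kept Hspa1a, with at most 9.83 estimated reads in a library, below the filter on low counts. Hspa1b was tested on 193.45 to 246.67 estimated reads in a library. The interval of its change, from −12.1% to 12.6%, holds falls of the size called for Dnajb1 (−9.99%) and Hspa8 (−11.3%). Its missing call therefore does not set Hspa1b apart from these genes.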

Other observations

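Beside the chaperones, 3 other listed genes of protein quality control were read, chosen after their values were seen. Ubb, a heat-inducible polyubiquitin gene, went from 2557 to 2733 TPM with the inhibitor, a log2 fold change of 0.13 (adjusted p = 2.00e-05 from edgeR). Vcp, the ATPase that extracts ubiquitinated proteins, went from 393.7 to 259.6 TPM, a log2 fold change of −0.57 (adjusted p = 1.61e-25 from edgeR). Serpinh1, the collagen chaperone HSP47 of the endoplasmic reticulum and an HSF1 target, went from 321.5 to 373.9 TPM, a log2 fold change of 0.25 (adjusted p = 1.30e-10 from edgeR).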
